A study of Mus musculus with 12 samples.

Results

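The transcription factors Gata6, Klf2, Klf4, Cebpb, Irf4, Irf8, Spi1, Maf and Bhlhe40, which are known to shape the identity of mononuclear phagocytes, were followed in F4/80lo and F4/80hi Mϕ sorted from the inflamed peritoneum. They were chosen by name, and all 9 were found among the 47643 genes of the expression tables. Peritonitis had been induced in female C57BL/6 mice with zymosan A (5 mg/kg, i.p.), and all animals received this agent. From day 1 the animals were given daily i.p. injections of CIII (25 mg/kg), an inhibitor of the prostaglandin E synthase mPGES-1, or of its vehicle (VEH), made of Tween-80 and carboxymethyl-cellulose in saline, and Mϕ were taken at day 6. The mice were young adults by the study's methods, and the labels give no genetic modification. Because all mice were given zymosan, the uninflamed state is not shown. CD45+ CD11b+ cells were sorted as F4/80lo Mϕ (F4/80 and MerTK low, MHCII high) or F4/80hi Mϕ (F4/80 and MerTK high), with 3 libraries from VEH and 3 from CIII mice for each gate, or 12 in all. By the study's gating, CD11c+ MHCII+ dendritic cells and CD11b- lymphoid cells were set aside beforehand, and Ly6G+ neutrophils were parted from F4/80lo Mϕ. The labels do not say whether a library came from 1 mouse or from several, so p-values measure the spread between libraries.

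Tissue-resident large peritoneal Mϕ are maintained by GATA6, a zinc-finger factor switched on by retinoic acid from the omentum and the mesothelium. Other members act more widely: PU.1 (encoded by Spi1) and C/EBPβ (Cebpb) open myeloid enhancers, IRF8 and IRF4 pair with PU.1 in monocyte, Mϕ and dendritic cell programmes, and c-MAF (Maf) restrains self-renewal of Mϕ. KLF2 and KLF4 are related zinc-finger factors, the former known from peritoneal Mϕ and quiescent cells and the latter from monocyte differentiation, and BHLHE40 is a basic helix-loop-helix repressor that supports proliferation of peritoneal Mϕ. During zymosan peritonitis, monocyte-derived cells enter a cavity in which resident Mϕ have become few, and both origins can be present in the sorted gates.

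The libraries were 3′ tag libraries with molecular identifiers, and held between 426624 and 3389448 reads on genes. Levels are given in RPM, reads per 1000000 after a joint scaling of the 12 libraries (TMM), in the order of the library numbers 1, 2 and 3. The libraries numbered 3 stood apart in all 4 groups. The first principal component (35.3% of the variance) parted them from the others, and a single locus, Gm42418, which overlaps ribosomal RNA, took 2.65% to 14.3% of their reads but at most 0.579% elsewhere. For each member the difference between the gates is also given without them. Libraries with the same number deviated together across gates and, less clearly, across treatments. VEH libraries numbered 1 were closer to CIII libraries numbered 2 than to those numbered 1. Mice received either CIII or VEH, so across treatments a shared number cannot mark the same mouse. A fit that paired libraries by number (replicate block) is set beside the unpaired one. The 8 identity markers of Mϕ were present in every group, with a sum of 11107 to 16419 RPM over the F4/80lo libraries, against 17527 to 30553 over those of F4/80hi, and Adgre1, the gene of F4/80, stood at 261 ± 60.5 against 916 ± 398. The sum of 10 T and NK cell markers stayed between 1.39 and 44.8 RPM and that of 10 eosinophil and mast cell markers between 0 and 16.5, with Mcpt4, Fcer1a, Ms4a2, Prg2 and Epx at 0. In such bulk samples, fewer cells of a type and less RNA per cell cannot be told apart.

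Between the subpopulations, Gata6 was the member with the largest difference, being lower in F4/80lo Mϕ, whereas Irf4 was higher and Cebpb lower there with unadjusted p-values under 0.05. With limma on log2(RPM + 1) and no block, 0 of the 9 members passed an adjusted p of 0.05, as did 0.0186% of the 10726 genes tested (Saa3 and Grk3). An unadjusted p under 0.05 was reached by 3 of 9 members, against 9.29% of all genes. With the replicate block, 1 of 9 members (Gata6) passed the adjusted threshold as lower in F4/80lo, against 2.5% of all genes, and 0 of 9 passed as higher, against 2.62%. In that fit 6 of 9 members had an unadjusted p under 0.05, against 20.5% of all genes. Genes were tested if their mean over the 12 libraries was at least 3 RPM. Gata6 reached this only through F4/80hi (mean 25.8 RPM, against 2.85 in F4/80lo). Across the 9 members the median log2 difference was 0.13, and across all genes it was -0.003. The mean was higher in F4/80lo for 5 members and lower for 4, as for 5341 and 5385 of all genes. In 0 of the 9 did all 6 F4/80lo libraries lie below all 6 F4/80hi libraries, which was seen in 0.28% of all genes.

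**Figure D1:**
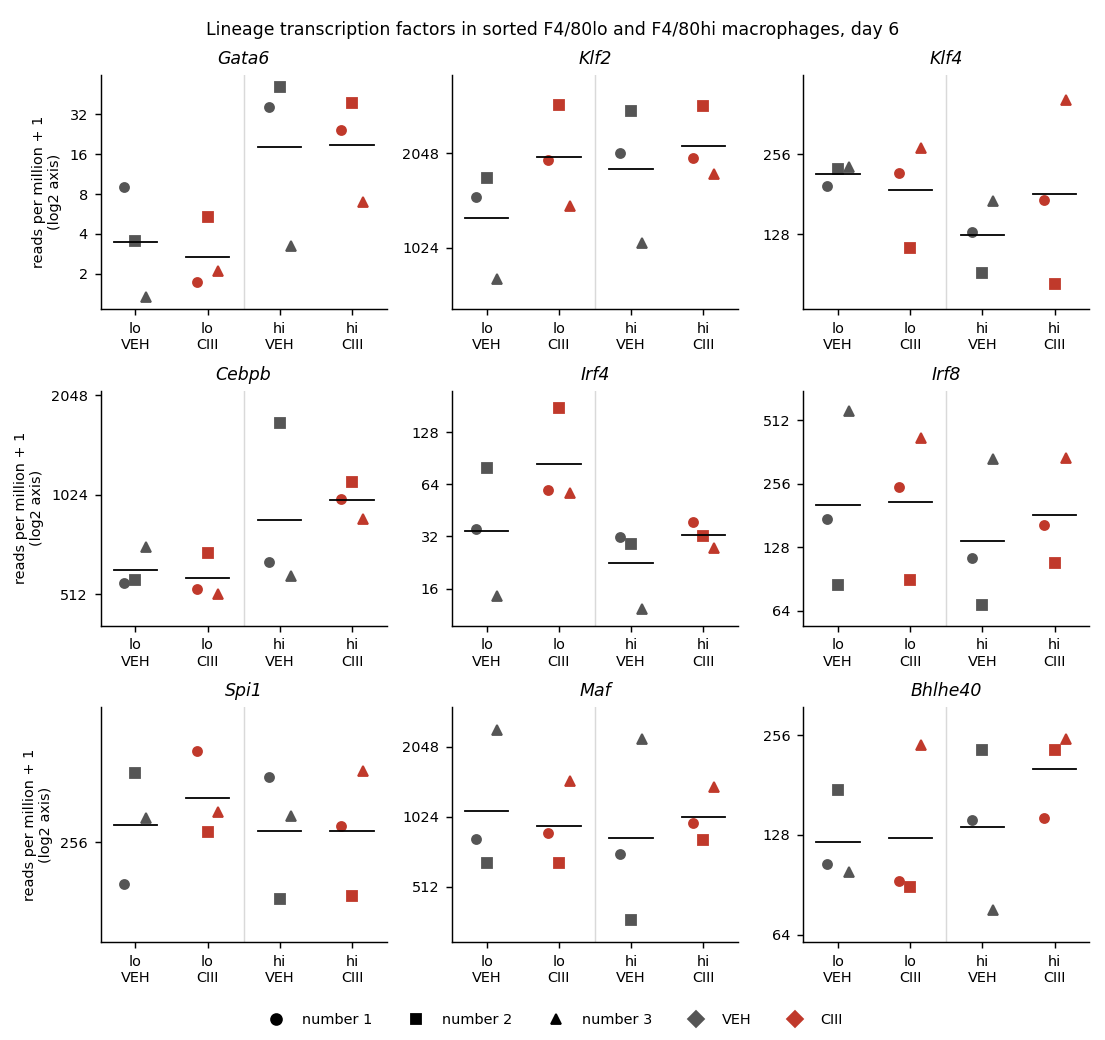
Level of each gene in the 12 libraries, in RPM + 1 on a log2 axis, by subpopulation (lo, hi) and treatment (grey, VEH; red, CIII), with the replicate number as symbol and the mean of the log2 values as a line. Gata6 is low in all F4/80lo libraries and also in the F4/80hi libraries numbered 3, whereas Irf8 and Maf are highest in the libraries numbered 3 of every group.

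Gata6 (chr18:11052064-11085635, plus strand, GRCm38 with GENCODE M21, as all positions below) was measured with few reads. In F4/80hi Mϕ it reached 35.2, 50.1 and 2.24 RPM in VEH libraries (25, 36 and 2 reads) and 23.2, 37.8 and 6.03 in CIII libraries (29, 29 and 10 reads). In F4/80lo Mϕ the levels were 7.98, 2.53 and 0.348 in VEH libraries (7, 2 and 1 reads) and 0.727, 4.41 and 1.10 in CIII libraries (1, 2 and 1 reads). Both F4/80hi libraries numbered 3 fell below the other 4 of their gate and within the range of F4/80lo, so the gates overlapped. In 5 of the 6 F4/80lo libraries Gata6 stood at or below 3 reads, the limit that a count of 0 allows, which corresponds to 0.885 to 7.03 RPM depending on the depth.

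The mean was 2.85 ± 2.92 RPM in F4/80lo and 25.8 ± 18.9 in F4/80hi (SD, n = 6 each). On the log2(RPM + 1) scale, which understates the difference of a gene this low, Gata6 differed by -2.59 ± 0.76 (SE), or a 6.01-fold higher value in F4/80hi. The adjusted p of limma was 0.286 without the block and 0.00606 with it (SE 0.50). F4/80lo was lower in 6 of 6 pairs of the same treatment and number, as in 5.12% of all genes, and an exact permutation test over the 12 libraries gave a two-sided p of 0.0152. Over the summed reads, 131 in F4/80hi and 14 in F4/80lo, the rate was 11.3-fold higher in F4/80hi, with an exact 95% binomial interval of 6.53 to 21.3 that covers counting error only. Within the VEH pair numbered 3, only 2 and 1 reads were behind the ratio of 6.43, and its interval ran from 0.335 to 380.

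The value moved with the libraries numbered 3 and with the test. Over the numbers 1 and 2 alone the difference was -3.13 (adjusted p = 0.00654 by limma, no block), and without the F4/80hi VEH library numbered 3 it was -3.20 (adjusted p = 0.0243). Leaving out any 1 of the other 11 libraries gave -2.93 to -2.22, with adjusted p-values from 0.205 to 0.640. On the recovered reads, DESeq2 gave -3.38 (adjusted p = 0.0115) and edgeR's quasi-likelihood test -3.39 (adjusted p = 0.184). Over the alternatives other than leaving out 1 library, Gata6 stayed lower in F4/80lo, from -3.39 to -1.71, with adjusted p-values from 5.57e-05 to 0.975. Within VEH the difference was -2.38 ± 1.07 and within CIII -2.80 ± 1.07, and neither passed the threshold in limma, with the block (adjusted p = 0.102 and 0.0682) or without it. With edgeR on the recovered reads and the block, a fit added after the data were seen, Gata6 passed in both. The difference was then -2.89 within VEH (adjusted p = 0.0324) and -3.51 within CIII (adjusted p = 0.0162). GATA6 is also made by mesothelial cells. Of 10 mesothelial markers 6 were at 0 in all 12 libraries (Msln, Upk3b, Upk1b, Krt8, Krt19 and Lrrn4), and the sum of the list, mostly Cdh1, ranged from 2.24 to 11.5 RPM in F4/80hi and from 3.13 to 51.6 in F4/80lo. The sort was for CD45+ CD11b+ cells, and the part of mesothelial cells in the Gata6 levels was not tested. A transcript on the opposite strand, 1010001N08Rik, held 28 reads in all libraries together.

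Of the other GATA factors, Gata2, Gata4 and Gata5 were at 0 in all libraries and Gata1 and Gata3 were too low to be tested, their sum lying between 0 and 5.09 RPM. Genes known from resident large peritoneal Mϕ were also lower in F4/80lo. In the list of 22 such genes (Gata6 was not counted), all 22 had lower mean values in F4/80lo, with a median log2 difference of -1.67, and 17 passed an adjusted p of 0.05 with the block, against 2.5% of all genes called lower there, but 1 (Saa3) without it. These counts include Adgre1, the gene of F4/80, and, among the 22, Mertk (log2 difference -0.19, adjusted p = 0.574), since the gates were set by both proteins. Among those called with the block, the largest differences were in Serpinb2 (-2.85, adjusted p = 2.87e-04), a serpin, Aspa (-2.63, adjusted p = 0.00214), which is an aspartoacylase, Saa3 (-2.44, adjusted p = 6.89e-06), an acute-phase protein, and Vsig4 (-2.25, adjusted p = 0.0206), a complement receptor. In the list of 17 genes of monocyte-derived Mϕ, 15 were higher in F4/80lo (median log2 difference 2.08), and 10 passed as higher and 1 as lower with the block, against 2.62% and 2.5% of all genes, but 0 without it. The largest were Cd209a (4.09, adjusted p = 3.71e-04), a C-type lectin, Cx3cr1 (2.74, adjusted p = 7.06e-04), a chemokine receptor, Cd74 (2.53, adjusted p = 7.51e-04), the invariant chain of MHCII, and H2-Eb1 (2.50, adjusted p = 9.24e-04), an MHCII chain. Cd209a was high enough to test only through F4/80lo, at a mean of 58.6 RPM against 1.18. MHCII was part of the sort for F4/80lo, so its genes are no independent finding.

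Cebpb (chr2:167688915-167690418, plus strand), a factor of inflammatory and alternative Mϕ activation that is also needed by peritoneal Mϕ, had its highest levels in F4/80hi without passing the adjusted threshold. Its levels there were 639, 1689 and 582 RPM in VEH and 991, 1122 and 867 in CIII libraries. In F4/80lo they were 554, 564 and 711 in VEH and 532, 682 and 513 in CIII libraries. The 3 CIII libraries of F4/80hi lay above all 6 of F4/80lo, whereas the VEH libraries of F4/80hi ranged from within F4/80lo to the highest value of all. The log2 difference was -0.64 ± 0.27 (SE), with F4/80lo lower in 5 of 6 pairs. It did not pass limma's threshold without the block (adjusted p = 0.494) or with it (adjusted p = 0.0724), and the exact permutation test gave p = 0.0238, unadjusted. Over the libraries numbered 1 and 2 with the block, a fit added after the data were seen, the difference was -0.84 (adjusted p = 8.07e-04). The adjusted p ranged from 8.07e-04 to 0.975 over the alternatives. The gene overlaps Tmem189 on the opposite strand, which held 1056 reads in the 12 libraries. Neutrophils also make C/EBPβ, and the sum of 10 neutrophil markers ranged from 36.5 to 148 RPM in F4/80hi and from 21.8 to 90.2 in F4/80lo, with Camp and Ngp at 0. The sum was mostly Csf3r and S100a8. Ly6g had a mean of 0 RPM in F4/80hi and 0.179 in F4/80lo, and S100a9 of 1.63 and 0.934. Ly6G+ cells were excluded from F4/80lo Mϕ, and F4/80hi Mϕ are described as Ly6G low. The part of neutrophils in the Cebpb levels was not tested.

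Of the 4 other C/EBP genes that were high enough to test, 0 passed the threshold with either fit. Cebpa, needed for granulocyte and monocyte progenitors, stood at 229 ± 77.1 against 225 ± 84.7 RPM (mean ± SD, n = 6 each) in F4/80lo and F4/80hi, and Ddit3, a stress-induced relative, at 26.3 ± 7.73 against 14.5 ± 6.91.

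Irf4 (chr13:30749226-30766976, plus strand) and Irf8 (chr8:120736358-120756694, plus strand) encode the IRF members that bind with PU.1. The RefSeq table of promoters (GRCm38.p6) held entries for 5 of the 9 members, among them this pair, and 120 bases before both the RefSeq and the GENCODE start are shown because in the libraries numbered 3 these related genes stood at opposite ends of their groups, Irf4 the lowest and Irf8 the highest in 4 of 4. Capitals mark TATAAA and GGGCGG, searched on both strands (the latter, a GC box, also reads CCGCCC), and neither window overlaps an annotated exon.
Irf4, chr13:30749106-30749225, plus strand: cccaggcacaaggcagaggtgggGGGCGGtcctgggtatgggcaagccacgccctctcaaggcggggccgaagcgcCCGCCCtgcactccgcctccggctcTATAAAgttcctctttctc
Irf8, chr8:120736238-120736357, plus strand: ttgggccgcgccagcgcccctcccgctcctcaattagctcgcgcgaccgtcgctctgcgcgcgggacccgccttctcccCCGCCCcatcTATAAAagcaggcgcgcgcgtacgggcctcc
Both hold TATAAA just before the start, as do 12.4% of the 32851 promoters of the table in their 250 bases before the start, and both hold GGGCGG, as do 32.7%. A second RefSeq entry of Irf8, which starts at 120738639, holds neither, and is the one entry of the 5 members with TGCTGA, part of the MAF motif (16.1% of promoters). The IRF motif (a pair of GAAA set 2 bases apart) and the ETS-IRF composite motif (GGAA set 2 bases before GAAA), which are in 2.98% and 2.3% of promoters, were in neither within these 250 bases, nor was AGGAAG (29.5% of promoters), which shares letters with the composite.

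Irf4, which drives alternative activation and is also used by dendritic cells and B cells, was higher in F4/80lo in each pair. F4/80lo libraries had 34.2, 78.5 and 13.6 RPM under VEH and 58.1, 177 and 56.2 under CIII. F4/80hi libraries had 30.9, 27.9 and 11.2 under VEH and 37.5, 31.3 and 26.5 under CIII. All 3 CIII libraries of F4/80lo exceeded all 6 of F4/80hi, and under VEH the library numbered 3 of either gate was the lowest. The mean was 69.5 ± 57.0 in F4/80lo and 27.6 ± 8.88 in F4/80hi (SD, n = 6 each). The log2 difference of 1.00 ± 0.44 (SE) had an adjusted p of 0.511 without the block and 0.0541 with it. F4/80lo was higher in 6 of 6 pairs, as in 5.65% of all genes, while the exact permutation test over the 12 libraries gave p = 0.108. Irf4 passed the threshold with edgeR on the recovered reads and the block (log2 difference 1.04, adjusted p = 0.0238). It also passed in limma with the block over the numbers 1 and 2 (1.18, adjusted p = 0.00690). Both fits were added after the data were seen. Over all the alternatives the adjusted p ran from 0.00690 to 0.975.

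Irf8, a factor of monocytes and type 1 dendritic cells, varied with the replicate number. Its levels in F4/80lo were 173, 83.6 and 563 RPM under VEH and 245, 88.3 and 419 under CIII. In F4/80hi they were 113, 66.8 and 335 under VEH and 162, 107 and 339 under CIII. In all 4 groups the library numbered 3 was the highest and the one numbered 2 the lowest. F4/80lo exceeded F4/80hi in 5 of 6 pairs, by 0.38 ± 0.53 on the log2 scale, and the adjusted p was 0.874 without and 0.203 with the block. Over the numbers 1 and 2 alone it was 0.33.

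Of the 7 other IRF genes, 6 were tested and all 6 had higher mean values in F4/80lo (median log2 difference 0.49), and 1 passed the threshold with the block, against 2.62% of all genes called higher there. This was Irf5, a factor of inflammatory Mϕ, at 207 ± 27.0 against 116 ± 22.2 RPM (0.84, adjusted p = 0.00868), while 0 passed without the block. Some markers of dendritic and B cells were also higher in F4/80lo. Of 10 dendritic cell markers 5 were tested, and with the block 4 were higher (Flt3, Zbtb46, Cd209a and Btla) and Cd24a was lower (2.62% and 2.5% of all genes). None passed without it. Flt3, Cd209a and Btla (8.47 RPM in F4/80lo against 0 in F4/80hi) reached the mean of 3 RPM needed for testing only through F4/80lo. The count of higher markers thus depends partly on that filter. The sum of the list ranged from 19.9 to 367 RPM over the F4/80lo libraries, against 20.2 to 246 over those of F4/80hi. In F4/80hi it was mostly Cd24a (mean 106 RPM, against 41.6 in F4/80lo). Flt3, which defines dendritic cells and their progenitors, stood at 18.9 ± 13.5 against 0.666 ± 1.63. The sum of 10 B cell markers lay between 26.4 and 203 RPM for F4/80lo, against 0 to 76.7 for F4/80hi, mostly through Ighm (2.50, adjusted p = 0.0174 with and 0.322 without the block). These values stand beside a gating that set aside CD11c+ MHCII+ and CD11b- cells, and the part of dendritic and B cells in the levels of Irf4, Irf8 and Spi1 was not tested.

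**Figure D2:**
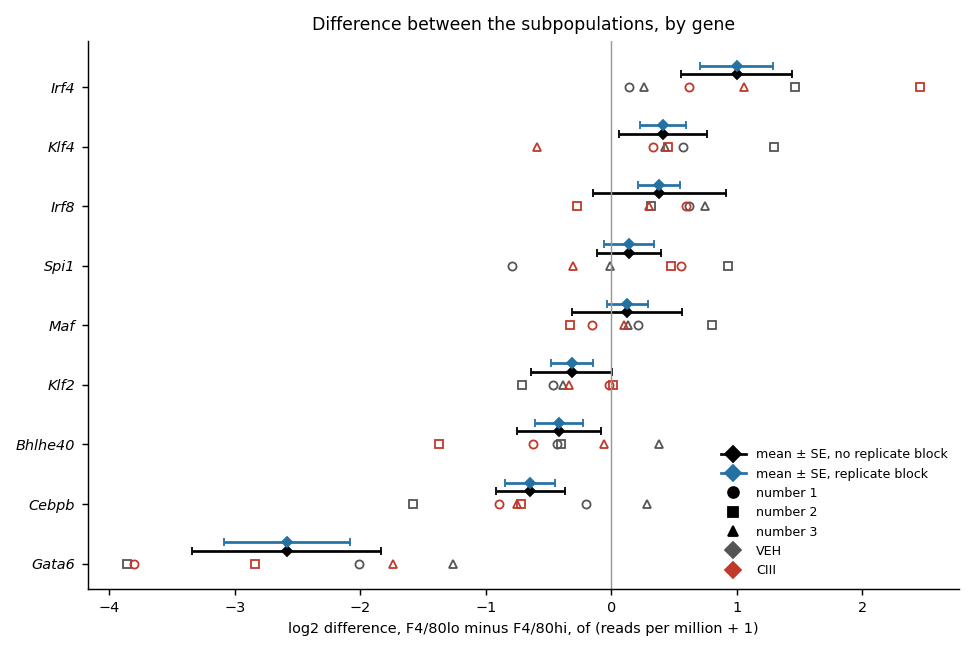
Difference between F4/80lo and F4/80hi for each gene, as log2 of (RPM + 1): open symbols are the 6 pairs of libraries with the same treatment (grey, VEH; red, CIII) and number, and diamonds are the means ± SE of limma without (black) and with (blue) the replicate block. Gata6 is below 0 and Irf4 above 0 in 6 of 6 pairs, and the SE of Irf8 shrinks most with the block, from 0.53 to 0.17.

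Klf2 (chr8:72319033-72321656, plus strand), which keeps Mϕ and T cells quiescent and is known as a gene of large peritoneal Mϕ, did not pass the threshold between the gates. F4/80hi libraries gave 2048, 2784 and 1064 RPM under VEH and 1978, 2879.9 and 1753 under CIII. F4/80lo libraries gave 1487, 1704 and 816 under VEH and 1951, 2907 and 1385 under CIII. The library numbered 3 was the lowest in all 4 groups, and the one numbered 2 the highest. The log2 difference was -0.32 ± 0.33 (SE), lower in F4/80lo in 5 of 6 pairs, with an adjusted p of 0.807 without and 0.297 with the block (SE 0.17), and -0.28 over the numbers 1 and 2 alone.

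Klf4 (chr4:55527143-55532466, minus strand), which promotes the monocyte fate, had 193, 224 and 229 RPM in F4/80lo VEH and 217, 113 and 269.9 in F4/80lo CIII libraries. In F4/80hi it had 129, 90.5 and 170.3 under VEH and 172, 82.2 and 408 under CIII, and the CIII library numbered 3 was the highest of all 12. It was higher in F4/80lo in 5 of 6 pairs, by 0.41 ± 0.35, with an adjusted p of 0.764 without and 0.214 with the block. Without the libraries numbered 3 and with the block, a fit added after the data were seen, the difference was 0.68 (adjusted p = 0.0252). Its promoter was the one among the 5 that held an E-box, CACGTG, the letters read by BHLHE40 and its relatives, which 6.02% of promoters hold. The KLF motif CCACCC was in the entries of Cebpb and Klf2, as in 28.1% of promoters, and GATAA (22.6%) and the C/EBP motif TTGCNNAA (9.56%) were in none of the 5. The window below shows that match beside GC boxes, with the E-box and the GC boxes, read on either strand, in capitals, so that a GC box that overlaps its neighbour reads as 1 block.
Klf4, chr4:55532578-55532697, minus strand: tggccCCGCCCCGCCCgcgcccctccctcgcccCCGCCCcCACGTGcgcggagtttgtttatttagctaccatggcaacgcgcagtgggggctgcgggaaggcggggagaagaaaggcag
Of the 15 other KLF genes, 9 were tested and 0 passed the threshold in either fit, with a median log2 difference of 0.23. Klf6 stood at 366 ± 124 against 326 ± 178 RPM in F4/80lo and F4/80hi and Klf9 at 61.8 ± 42.1 against 77.4 ± 37.7.

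Spi1 (chr2:91082390-91115756, plus strand), whose product PU.1 is required for all Mϕ, ranged from 191 to 408 RPM over the 12 libraries. The levels were 205, 364 and 288 in F4/80lo VEH, 408, 269 and 297 in F4/80lo CIII, 356, 191 and 291 in F4/80hi VEH and 277, 193 and 368 in F4/80hi CIII libraries. F4/80lo was higher in 3 of 6 pairs, and the log2 difference of 0.14 ± 0.25 was smaller than its SE, and it was 0.31 over the numbers 1 and 2 alone. Of 16 other ETS genes 14 were tested, and 0 passed the threshold in either fit. The PU.1 homologue Spib stood at 5.26 ± 5.49 against 0.773 ± 1.20 RPM and Elf4, known from quiescent T cells, at 161 ± 51.3 against 106 ± 23.6.

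Maf (chr8:115682942-115707794, minus strand) reached 818, 645 and 2429 RPM in F4/80lo VEH and 869, 649 and 1466 in F4/80lo CIII libraries. The F4/80hi libraries had 705, 369 and 2220.2 under VEH and 965, 817 and 1371 under CIII. As for Irf8, the library numbered 3 was the highest and the one numbered 2 the lowest in every group. The log2 difference was 0.13 ± 0.44, with F4/80lo higher in 4 of 6 pairs, and 0.15 over the numbers 1 and 2 alone.

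Bhlhe40 (chr6:108660629-108666925, plus strand) had 141, 229.8 and 75.1 RPM in F4/80hi VEH and 143, 229.7 and 248 in F4/80hi CIII libraries. The F4/80lo libraries had 104, 174 and 98.2 under VEH and 92.3, 88.3 and 238 under CIII, the library numbered 3 of the CIII group being far above the rest. F4/80lo was lower in 5 of 6 pairs, with a log2 difference of -0.42 ± 0.33, and the adjusted p was 0.743 without and 0.234 with the block. Over the libraries numbered 1 and 2 with the block the difference was -0.69 (adjusted p = 0.0216). In that fit, which was added after the data were seen, 3 of 9 members (Gata6, Cebpb and Bhlhe40) were called lower in F4/80lo, against 6.04% of all genes. As higher, 2 of 9 (Irf4 and Klf4) were called, against 4.98%. Over all 12 libraries with the block, limma called Gata6 alone among the members. The paralogue Bhlhe41 stood at 5.43 ± 5.30 against 22.9 ± 19.4 RPM in F4/80lo and F4/80hi, and did not pass with the block (adjusted p = 0.103).

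Of 43 other myeloid transcription factors 42 were tested, with a median log2 difference of 0.29 towards F4/80lo. With the block 5 passed, all higher in F4/80lo, against 2.62% of all genes, and 0 passed without it. The 4 largest were Batf3 (2.84, adjusted p = 0.0113) and Zbtb46 (2.75, adjusted p = 0.00773), both used by dendritic cells, Bcl6 (1.00, adjusted p = 0.0233), a repressor of inflammatory genes, and Nfkb1 (0.87, adjusted p = 0.00409), a subunit of NF-κB.

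**Figure D3:**
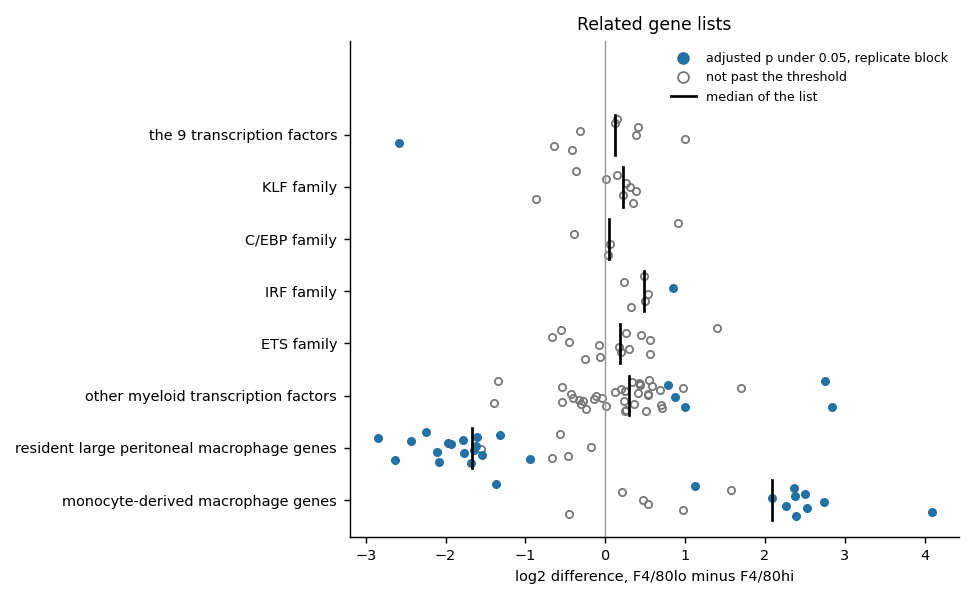
Log2 difference between F4/80lo and F4/80hi of each tested gene in the 9 members and in the related lists, filled where the adjusted p with the replicate block was under 0.05, with the median of each list as a bar. The resident list lies below 0 with 17 of 22 genes filled and the monocyte-derived list mostly above 0, whereas the KLF, C/EBP and ETS families have genes on both sides of 0 and all 6 tested IRF genes lie above it.

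Several members varied with the replicate number in all groups. The library numbered 3 was the highest of its group in 4 of 4 groups for 3 of 9 members (Klf4, Irf8 and Maf), which held for 14.7% of all genes, and the lowest in 4 of 4 groups for 2 of 9 (Klf2 and Irf4), which held for 9.78%. On the log2 scale, number 3 exceeded the mean of numbers 1 and 2 by 1.36 to 2.22 for Irf8 over the 4 groups and by 0.63 to 2.12 for Maf. For Klf4 the excess ran from 0.14 to 1.77. For Klf2 the same difference was -1.17 to -0.45 and for Irf4 -1.86 to -0.36. Gata6 was also below the mean of the others in all 4 groups (difference -3.73 to -0.54), and was the lowest in 3 of them. Spi1, Cebpb and Bhlhe40 changed sign between groups. These libraries were the same ones in which Gm42418 took the largest share of reads. The sums of the dendritic cell markers (in F4/80hi mostly Cd24a) and of the resident Mϕ genes were lowest in them within each group. In F4/80hi the resident sum was 3824 and 4021 RPM in these libraries, against 10240 to 14283 in the other 4. The sum of the monocyte-derived genes was there the highest of its group, at 4767 RPM under VEH and 16012 under CIII, against 1794 to 6610 in the other 4. In F4/80lo it was the lowest under VEH (6150 against 16032 and 18627) and between the others under CIII (21035 against 28482 and 16878). The part of each of these in the members' levels was not tested.

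**Figure D4:**
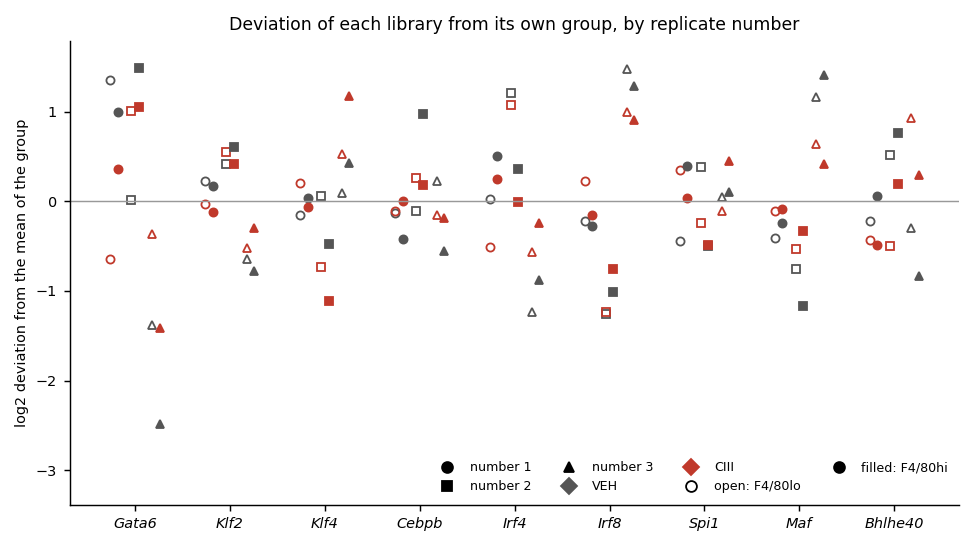
Deviation of each library from the mean of its own group, on the log2(RPM + 1) scale, with the replicate number as symbol, the treatment as colour and the subpopulation as open (F4/80lo) or filled (F4/80hi). For Irf8 and Maf the 4 triangles of number 3 lie above 0, and for Klf2, Irf4 and Gata6 they lie below 0.

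Whether inhibition of mPGES-1 changed these factors was asked within each gate, on the normalized counts of its own table. In F4/80lo 8 of the 9 members were high enough to test and in F4/80hi all 9. In both gates 0 members passed an adjusted p of 0.05, as did 0% of all genes in limma, and 0 did so with the block. On the recovered reads, DESeq2 called 2 genes in F4/80lo and 0 in F4/80hi and edgeR 0 in both, and no member was among them. An unadjusted p under 0.05 was reached by 0 of 8 members in F4/80lo, against 2.7% of the genes tested there, and by 0 of 9 in F4/80hi, against 3.93%. With the block it was reached by 2 of 8 (Irf4 and Klf2) in F4/80lo, against 6.89%, and by 0 of 9 in F4/80hi, against 11.3%. CIII and VEH libraries overlapped for every tested member, with 0 separated in F4/80lo, against 8.73% of all genes, and 0 in F4/80hi, against 10.5%. With 3 libraries against 3, an exact permutation test cannot give a two-sided p below 0.1.

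Irf4 showed the largest difference in F4/80lo. Its log2 difference, CIII minus VEH, was 1.30 ± 0.65 (SE), and for the numbers 1, 2 and 3 it was 0.69, 1.19 and 2.04. Over the numbers 1 and 2 alone it was 0.94, and leaving out 1 library gave 0.66 without the VEH library numbered 3, 0.75 without the CIII library numbered 2, and up to 1.92 without the others. The adjusted p was 0.9996 without the block (unadjusted 0.0703) and 0.682 with it (unadjusted 0.00410), and the exact permutation test gave p = 0.300. In F4/80hi the difference was 0.49 ± 0.49, or 0.21, 0.14 and 1.13 by number. Irf4 was thus above VEH in 3 of 3 numbers in both gates, although equal numbers under CIII and VEH are not the same mice. The other member with 3 of 3 in F4/80lo was Klf2, so that 2 of 8 did so against 13.1% of all genes, and in F4/80hi Irf4 was 1 of 9, against 17.2%. The Klf2 difference in F4/80lo was 0.65 ± 0.46, or 0.33, 0.80 and 0.83 by number, with an adjusted p of 0.9996 without and 0.710 with the block. In F4/80hi it was 0.19 ± 0.48, and over the numbers 1 and 2 alone it was -0.05.

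In F4/80lo, the sum of the dendritic cell markers was 172, 367 and 19.9 RPM under VEH and 165, 183 and 58.4 under CIII, and that of the B cell markers was 129, 31.7 and 26.5 under VEH and 203, 72.8 and 26.4 under CIII. Of the dendritic cell markers 6 were tested there, 5 had a higher mean log2 level under CIII and 0 passed an adjusted p of 0.05, and their part in the Irf4 values was not tested. In the lists of related transcription factors, resident genes and monocyte-derived genes, 0 genes passed this threshold between CIII and VEH in either gate, with or without the block.

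Gata6 did not differ in F4/80hi by more than its spread, at 29.2 ± 24.5 RPM under VEH and 22.3 ± 15.9 under CIII (SD, n = 3 each), with a log2 difference of -3.24e-04 ± 1.05, and -0.53 over the numbers 1 and 2 alone. This SE leaves room for changes of more than 2-fold either way. The same holds in F4/80lo, where only 10 and 4 reads of Gata6 were counted in all VEH and all CIII libraries. Bhlhe40 in F4/80hi (0.53 ± 0.45) and Klf4 in F4/80hi (0.46 ± 0.55) were carried by the library numbered 3, with values by number of -0.04, -0.03 and 1.66 for Bhlhe40 and 0.34, -0.16 and 1.21 for Klf4. For Cebpb the difference was -0.07 ± 0.34 in F4/80lo and 0.16 ± 0.46 in F4/80hi. Irf8, Spi1 and Maf in both gates, and Klf4 and Bhlhe40 in F4/80lo, lay between -0.20 and 0.36, each with an SE larger than the difference. Over the numbers 1 and 2 alone, the F4/80hi difference was 0.75 for Maf, 0.55 for Irf8 and -0.22 for Spi1. For F4/80lo it was then -0.58 for Bhlhe40, -0.43 for Klf4 and 0.27 for Irf8, and no member passed the threshold over these numbers.

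The responses of the gates were also compared with each other. For 0 of 9 members did the F4/80lo response less the F4/80hi response pass an adjusted p of 0.05, as for 0% of all genes, and 0 of 9 had an unadjusted p under 0.05, against 1.85% of all genes. The largest were Irf4 (0.76 ± 0.88) and Klf4 (-0.70 ± 0.71), where the median of all genes was -0.16. Leaving out 1 library gave 0.12 to 1.36 for Irf4, lowest without the F4/80lo VEH library numbered 3, and -1.26 to -0.13 for Klf4, nearest to 0 without the F4/80hi CIII library numbered 3, so their order among the members was not stable.

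**Figure D5:**
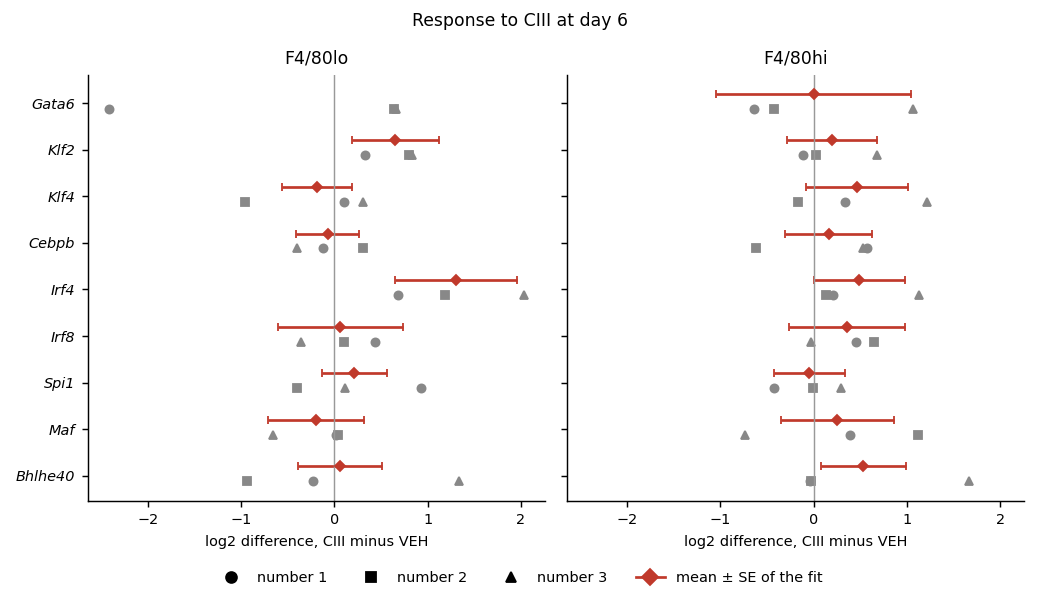
Log2 difference between CIII and VEH libraries in F4/80lo (left) and F4/80hi (right), with the difference of each replicate number as a grey symbol and the mean ± SE of limma in red. Gata6 in F4/80lo has no mean because it was too low to test, and Irf4 lies above 0 for all 3 numbers in both gates.

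Among the 10726 tested genes, those whose log2 levels over the 12 libraries were most like each member were found by Pearson's r. These values describe libraries that share the replicate numbers, the gates and the depth. Gata6 was nearest to Dab2ip (r = 0.963), Itga6 (0.963), an integrin chain, and Glul (0.962), a glutamine synthetase. Irf4 was nearest to Elf4 (0.902), Plekhg3 (0.899) and Nfkb2 (0.893), and Bhlhe40 to Klhl5 (0.937), Ptgs1 (0.914), the gene of COX-1, and Slc7a2 (0.902), an arginine transporter. Klf2 lay closest to Rab11fip5 (0.936), Cgnl1 (0.934) and Ncoa6 (0.932), and Klf4 to Syt11 (0.934), Phactr2 (0.926) and its relative Klf6 (0.921). Cebpb came with Cdc42bpa (0.896), Cab39 (0.884) and an unnamed gene (0.878). Irf8 came with Kmt2e (0.986), Zfr (0.985) and Gm1966 (0.978), and Maf with Rhou (0.973), Sdccag8 (0.964) and Sdc4 (0.961). Spi1 came with 6330403L08Rik (0.862), Ddx47 (0.855) and Gm37349 (0.847).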

How the data were processed

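RNA of sorted F4/80lo and F4/80hi Mϕ was analysed in 12 libraries (4 groups, 3 each, by the labels). The authors prepared QuantSeq 3′ libraries with molecular identifiers. According to the submitters' processing notes, STAR, HTSeq, DESeq2 and the build GRCm38 were used, with no versions given. The deposited values were normalized counts (gene signal divided by size factors), 1 table per gate, each scaled on its own.

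Dividing every value by that of 1 read gave whole reads for 100% of values. The tolerance was 0.001 and was widened in proportion for large counts, which were thus checked less strictly. These reads were scaled jointly over the 12 libraries by TMM to compare the gates. Differences were tested with limma 3.58.1 (R 4.3.3; mean-variance trend, two-sided, Benjamini-Hochberg over all genes tested, threshold 0.05) on log2(value + 1), for genes with a mean of at least 3. CIII was compared with VEH on the deposited normalized counts of each gate. edgeR 4.0.16 and DESeq2 1.42.0 were run on the recovered reads as alternatives, as were other scalings, pseudocounts, filters and libraries left out. The limma fits between the gates, without and with the block, and the unblocked limma fits of the CIII responses were tested on simulated data first. The simulated libraries were independent, so a shared effect of the replicate number was not simulated. The edgeR and DESeq2 alternatives were not run on them. Deviations from the group means of same-numbered libraries (numbers from the labels) correlated in every pair, with r of 0.263 to 0.691 between gates and 0.121 to 0.633 between treatments, so the numbers were taken to pair the libraries, although the VEH libraries numbered 1 deviated more closely with the CIII libraries numbered 2 (r of 0.163 in F4/80lo and 0.286 in F4/80hi) than with those numbered 1 (0.121 and 0.210). Intervals cover counting error only.

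The 9 members, the 17 gene lists and the tests were chosen with earlier results of these data known, and the alternatives with the block over the numbers 1 and 2, edgeR with the block and quantile scaling were added after the data were seen. The rule for named genes was the 9 members always, then up to 4 genes per list and direction past the threshold between the gates by size. As the unpaired fit called 2 genes, the rule was applied to the fit with the block, a choice made after the values were seen. For CIII a list gene was to be named with an adjusted p under 0.05. Results of some list genes are not reported here. The 3 genes nearest to each member were named by Pearson's r. Of 47643 genes, 419 had no symbol. Strand-specific counting is not given in the sources used here, so overlapping genes on opposite strands are named.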

Additional observations from a re-analysis of the deposited data

How the results depend on the processing

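Between F4/80lo and F4/80hi, Gata6, Cebpb, Irf4, Irf8, Klf2, Klf4, Spi1 and Bhlhe40 kept their direction under every alternative run, and Maf turned with the CIII libraries alone (-0.15) and without the F4/80lo VEH or CIII library numbered 3 or the F4/80hi VEH library numbered 2. The number of genes called was 2, and it was 549 with the replicate block, 633 with edgeR and the block, 1176 with the block over the numbers 1 and 2, 330 over these numbers without it, 140 with DESeq2, 10 with a pseudocount of 5, 4 with total reads as scale, and 0 without a filter or in VEH libraries alone. Leaving out 1 library gave 0 to 142 genes, most without the F4/80hi VEH library numbered 3 and 39 without the F4/80lo VEH library numbered 3. Over all 12 libraries the pairing by replicate number changed in limma the call of Gata6 and of no other member, and in edgeR those of Gata6, also within VEH and within CIII, and of Irf4. Over the numbers 1 and 2 it changed those of Klf4, Cebpb, Irf4 and Bhlhe40. In F4/80lo, the genes called between CIII and VEH went from 0 to 2 with DESeq2, 4 with edgeR and the block and 12 over the numbers 1 and 2. The cause of these shifts was not tested. No alternative called a member between CIII and VEH.

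Values that were not called changed sign as follows. For CIII against VEH in F4/80hi, Gata6 was 0.082 with total reads, 0.017 with TMM and 0.040 with a pseudocount of 0.5, Spi1 was 0.061 with total reads, Maf was -0.12 with edgeR and -0.11 with DESeq2, Cebpb was -0.011 with DESeq2 and -0.024 over the numbers 1 and 2, and over these numbers Klf2 was -0.046 and Bhlhe40 -0.034. In F4/80lo, Cebpb was 4.22e-04 with total reads and 0.091 over the numbers 1 and 2, Irf8 was -0.12 with edgeR and -0.092 with DESeq2, and over the numbers 1 and 2 Maf was 0.031 and Bhlhe40 -0.58. Between the gates, Spi1 within VEH was -0.0025 with DESeq2 size factors and -0.012 with DESeq2, and within CIII Klf4 was -0.12 with edgeR and -0.11 with DESeq2 and Maf was 0.0024 with quantile scaling.

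Leaving out 1 library gave these ranges where the sign turned. Between the gates Maf ran from -0.18 to 0.50. Within CIII it was -0.45 to 0.13, with Irf8 at -0.29 to 0.81, Klf2 at -0.40 to 0.15 and Klf4 at -0.50 to 0.67. Within VEH Bhlhe40 ran from -0.53 to 0.23, Irf8 from -0.17 to 1.24, Maf from -0.20 to 1.13 and Spi1 from -0.21 to 0.26. For CIII in F4/80hi the ranges were -0.12 to 0.65 for Cebpb, -1.24 to 0.74 for Gata6, -0.15 to 1.00 for Irf8, -0.20 to 0.50 for Klf2, -0.12 to 1.01 for Klf4, -0.33 to 0.96 for Maf and -0.30 to 0.19 for Spi1. For CIII in F4/80lo they were -0.41 to 0.33 for Bhlhe40, -0.22 to 0.014 for Cebpb, -0.56 to 0.77 for Irf8, -0.44 to 0.16 for Klf4 and -0.56 to 0.35 for Maf. For the F4/80lo response less the F4/80hi response they were -1.18 to 0.80 for Gata6, -1.04 to 0.37 for Irf8, -1.25 to 0.056 for Maf and -0.040 to 0.43 for Spi1. The median of all genes for that response moved from -0.16 with TMM to -0.02 with quantile scaling, and for CIII in F4/80hi from 0.05 as deposited to 0.15 with total reads. Depth limits Gata6, since 3 reads in a library equal up to 7.03 RPM.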
